A study of Mus musculus with 42 samples.

Results

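Crym encodes mu-crystallin, a cytosolic protein that binds thyroid hormone and that is named in the study among genes of late retinal progenitor cells (RPCs). The comparison described here set the E16.5 cells with Crym against the E16.5 cells without Crym, and asked which genes of P0 RPCs were already found in the cells with Crym. Only profiles labeled E16.5 were used, 11 of the 42 single cell profiles of the series. A cell was counted as with Crym when the signal of the gene, that of the highest of its probe sets with a single gene symbol, was 1000 or more, and this held for 4 cells and failed for 7. The Crym signal itself therefore chose the cells and is given as a description.

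RPCs are the dividing cells of the developing retina. They produce all neurons of the retina and the Müller glia, and they change over time in the cell types that they make. Ganglion cells come early, while rod photoreceptors, bipolar cells and Müller glia come late, and the genes of RPCs shift along with this order. P0 RPCs are therefore the natural point of comparison for a gene such as Crym that appears late.

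All cells came from untreated mice of the outbred CD1 strain, and each was picked at random from a dissociated retina at E16.5, amplified by PCR and hybridized to 1 array. P0 cells (13) and E12.5 cells (11) of the same strain served to define late and early genes. The cells were called progenitors after profiling, by a score over genes associated with known progenitor genes. Crym and Sfrp2 were among the genes around which that score was built, so that the choice of cells was not independent of them. The study classed D5 and F1 among the cells with Crym, and E5 among the cells without Crym, as transitional, meaning cells that also carried neuronal genes. Which cells came from the same animal is not stated, and cells could not be counted as replicates. No test between the groups was run and no p-value is given. The intervals (95%) cover counting error only and not the spread between cells.

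The arrays of F1 and J4 with Crym, and of J2, J1 and E8 without Crym, differed from the others. The spiked hybridization controls (18 probe sets) deviated from their common profile by an SD of 0.649 to 0.672 log2 units on these 5 arrays, and by 0.192 or less elsewhere. Their median gene signals were 382 to 623, against 54.4 to 243 for the remaining 6 E16.5 cells, and 34.3 to 81.1% of their present genes lay just above the limit, between 1000 and 2000, against 8.15 to 30.5%. In F1, 4258 of 5253 present genes lay in this range. The arrays thus held 2 of the 4 cells with Crym and 3 of the 7 cells without Crym. For the late and early genes, the counts of higher and lower genes and the main gene lists, values within each set of arrays are given as well. The housekeeping genes measured (19) were present in 11 to 17 per cell with Crym and in 12 to 17 per cell without Crym, and the broad progenitor genes (15) in 4 to 11 and in 8 to 14. D5, E5 and E3 had the fewest genes present (1386, 1438 and 1674). Their 90th percentile signals were 449, 825 and 626, against 4230 in F4, 4274 in F5 and 4300 in D6. All arrays were scaled alike, and the part of this in the very high signals of single genes in D5 and E5 was not tested.

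The Crym signal was 17693 in F4, 15413 in D5, 3357 in F1 and 2754 in J4. In the 7 cells without Crym it was 443 in J2, 213 in J1, 143 in E3, 130.1 in E5, 111 in F5, 74.8 in E8 and 31.3 in D6. The last cell inside the limit was thus J4 and the first outside J2, and no signal lay between 443 and 2754. Crym was measured by a single probe set. Over the stages, E12.5 had 1 positive cell of 11, with a signal of 1011, followed by 0 of 4 at E13.5, 0 of 2 at E14.5, 1 of 1 at E15.5, 4 of 11 at E16.5 (36.4%, exact interval 10.9 to 69.2%) and 13 of 13 at P0. The P0 signals were 1414 to 42027, with a median of 17595. F4 and D5 lay near this median, while F1 and J4 lay below all P0 cells but the lowest.

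**Figure D1:**
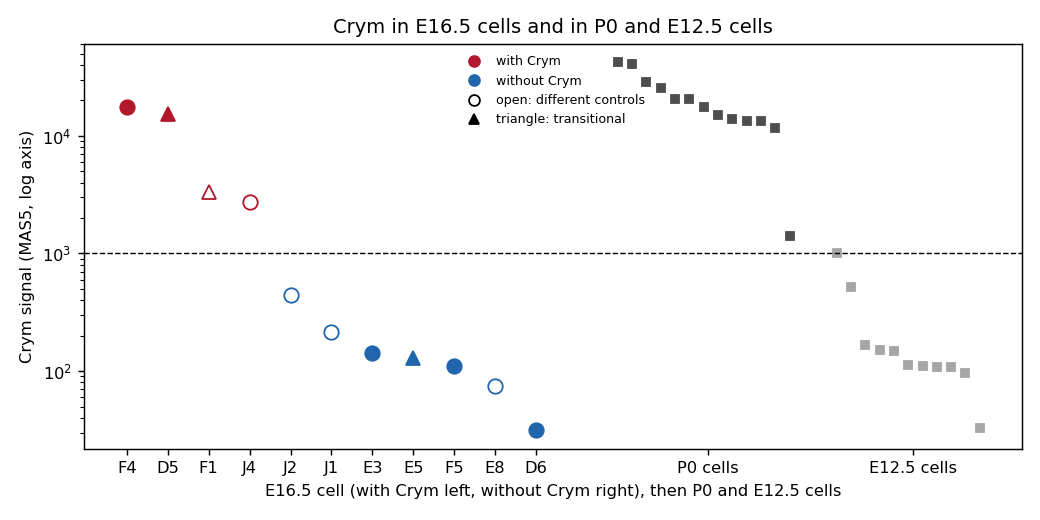
Crym signal (vertical log axis, MAS5 units) in each of the 11 E16.5 cells and in the P0 and E12.5 cells (horizontal axis). Symbols stand for single cells, open for arrays with different hybridization controls and triangular for transitional cells, and the dashed line is the limit of 1000. The signals of the 4 cells with Crym run between 2754 and 17693 and those of the 7 cells without Crym between 31.3 and 443.

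Late genes were those present, at 1000 or more, in a share of P0 cells at least 50 points larger than that of E12.5 cells. Crym was left out, and 128 late genes remained (1.28% of the 10018 genes present in a P0 or E12.5 cell). Early genes, with the opposite difference, numbered 27 (0.27%). The lists come from P0 and E12.5 cells and did not use the E16.5 cells. Taken as a set, the late genes were found about as often with Crym as without. Counted over all pairs of a late gene and a cell, they were present in 38.1% of pairs with Crym and 35.0% without Crym, a difference of 3.04 points (Newcombe interval −2.15 to 8.30). Over all 10891 genes present in any E16.5 cell the same shares were 31.8% with Crym and 25.9% without Crym, a difference of 5.87 points. For comparison, late genes were present in 74.3% of pairs at P0 and in 13.8% at E12.5, where the rule set the difference.

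In single cells, late genes numbered 64 in F4, 25 in D5, 50 in F1 and 56 in J4 with Crym. Without Crym they numbered 64 in J2, 60 in J1, 30 in E3, 17 in E5, 39 in F5, 65 in E8 and 39 in D6. The ranges overlapped, with the highest count in E8, whose Crym signal was 74.8. The lowest counts in each group were those of D5 and E5, the cells with the fewest genes present (1386 and 1438). P0 cells held 60 to 112 late genes and E12.5 cells 9 to 48. As a share of all genes present in a cell, late genes made up 0.952 to 1.90% with Crym and 1.18 to 2.02% without Crym. The P0 cells stood at 2.49 to 3.35%, and no E16.5 cell of either group reached the lowest of them.

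**Figure D2:**
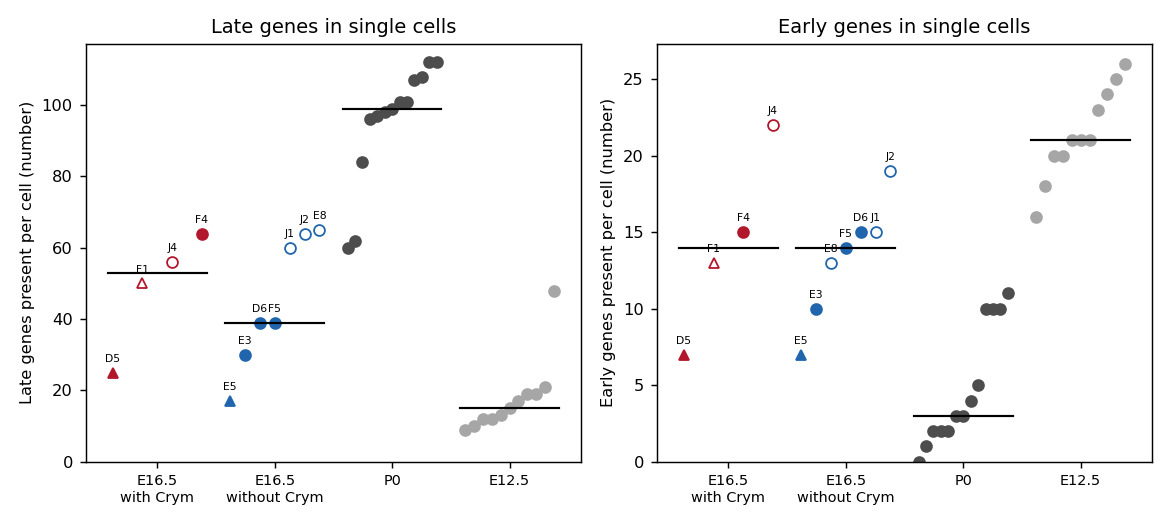
Number of the 128 late genes (left) and 27 early genes (right) present in each cell (vertical axes), for E16.5 cells with Crym, E16.5 cells without Crym, P0 cells and E12.5 cells (horizontal axes). Each symbol is 1 cell, marked as open for different controls and as a triangle for transitional E16.5 cells, and lines are medians. Cells with Crym hold 25 to 64 late genes and cells without Crym 17 to 65.

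The sets of arrays gave opposite orders. On the arrays with different controls, late genes were present in 41.4% of pairs with Crym (F1 and J4) and 49.2% without Crym (J2, J1 and E8), and both cells with Crym held fewer late genes than all 3 without. On the other arrays the shares were 34.8% with Crym (F4 and D5) and 24.4% without Crym (E3, E5, F5 and D6). The second difference, of 10.4 points, rested on F4, since D5 held 25 late genes against 17 to 39 in the 4 cells without Crym. The part of the arrays in these differences was not tested. Leaving out F4 alone turned the difference over all cells to −0.93 points, leaving out E5 alone turned it to −0.59 points, and leaving out D5 alone gave 9.23 points.

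The study's text names 5 late genes, beside Crym, that are also late by the rule used here. They are Car2, a carbonic anhydrase, Ptch1, the receptor of Hedgehog ligands, Tagln2, an actin-binding protein, Rlbp1, a retinaldehyde-binding protein of Müller glia and the pigment epithelium, and Sox8, a transcription factor of the SoxE group. The genes were chosen by the study on these cells, so that their difference between P0 and E12.5 in these profiles is not independent evidence. The study also stained retinal sections for RNA. It found Car2 and Ptch1 switched on by E16.5, while Tagln2 and Rlbp1 were not seen in the retina before P0. Cell F4 held 4 of the 5, as many as the median P0 cell (4, range 2 to 5). D5, with almost the same Crym signal, held 0. F1 held 0 and J4 held 1. The cells without Crym held 1 in J2, 1 in J1, 1 in E3, 0 in E5, 3 in F5, 3 in E8 and 0 in D6. Over the 5 genes, 5 of 20 pairs were positive with Crym (25.0%, exact interval 8.66 to 49.1%) and 9 of 35 without Crym (25.7%, 12.5 to 43.3%), and 4 of the 5 positive pairs with Crym were those of F4.

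Car2 had signals of 5037 in F4, 102 in D5, 576 in F1 and 560.2 in J4, against 65.7 to 3906 (median 673) in the cells without Crym, where E3 and F5 passed the limit. Ptch1 stood at 5500.1 in F4 and at 34.4 to 183 in the other cells with Crym, against 71.6 to 13057 (median 619.5) without Crym. For Ptch1 the highest signal of all 11 cells was thus that of J1, a cell without Crym. Tagln2 had signals of 3182 in F4, 217 in D5, 722 in F1 and 502 in J4, while cells without Crym ranged between 129 and 9146 (median 503), with F5 and E8 on top. Car2, Ptch1 and Tagln2 were thus each also present in cells without Crym. Tagln2 passed the limit at E16.5 in F4, F5 and E8, whereas the study's sections first showed it at P0.

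Sox8 was present in 2 of 4 cells with Crym (2034 in F4, 888 in D5, 60.9 in F1 and 2995 in J4) and in 2 of 7 without Crym (47.0 to 3969, median 159). Rlbp1 was present in no E16.5 cell (18.6 to 285 with Crym, 3.71 to 826 without Crym) and in 11 of 13 P0 cells. A further 3 late genes were taken up because earlier results of these data had shown them as late, namely Ttyh1, a membrane protein of the tweety family, Col9a3, a chain of collagen type IX, and Pdpn, the membrane glycoprotein podoplanin. Ttyh1 was present in F4 (1899) and F1 (1286) but not in D5 (171) or J4 (139), and in 1 cell without Crym (84.6 to 1127, median 387). Col9a3 and Pdpn were present in F4 and in no other E16.5 cell. For Col9a3 the signals were 1166 in F4, 278 in D5, 686 in F1 and 661 in J4, against 12.9 to 747 without Crym. For Pdpn they were 3570.2 in F4 and 23.9, 43.0 and 63.3 in D5, F1 and J4, against 10.96 to 523 without Crym. F4 thus held these 3 genes as well, while F1 held 1 of them and D5 and J4 held 0.

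**Figure D3:**
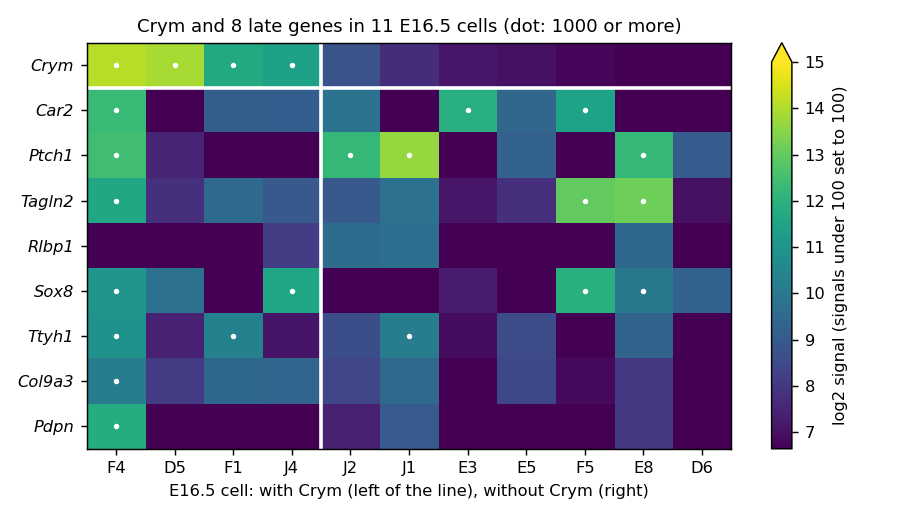
Signals (color, log2 scale, signals under 100 set to 100) of Crym, of 5 late genes named in the study's text and of Col9a3, Ttyh1 and Pdpn (rows) in the 11 E16.5 cells (columns), with the 4 cells with Crym left of the line and the 7 cells without Crym right of it. Dots mark signals of 1000 or more. Beside Crym, F4 carries all of them but Rlbp1, while D5 carries none, F1 carries Ttyh1 and J4 carries Sox8.

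A gene was counted as higher, or lower, with Crym when the percent of cells that held it differed by at least 60 points between the groups. By this rule 141 genes of the 10891 were higher (1.29%) and 50 were lower (0.459%). The counts depended on single cells, with 63 (without E3) to 429 (without D5) higher genes and 30 (without D5) to 90 (without F4) lower genes when 1 cell was left out. Of the 128 late genes, 1 was higher with Crym (0.781%) and 3 were lower (2.34%), and without D5 the late genes that were higher numbered 5. None of the 27 early genes was higher or lower. Of the 123 late genes present in an E16.5 cell, 68 had a larger share with Crym and 55 a larger share without Crym, and the median difference was 7.14 points, against 10.7 points over all genes present at E16.5.

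The late gene that was higher was Dnajc7, a co-chaperone with a J domain. Its signals were 6720.3 in F4, 27.6 in D5, 1468 in F1 and 2289.7 in J4, against 30.6 to 2462 (median 171) without Crym, so that 3 of 4 cells and 1 of 7 cells held it. The groups overlapped, with the single positive cell without Crym (E8, 2462) above F1 and J4. Dnajc7 was present in 9 of 13 P0 cells and 2 of 11 E12.5 cells.

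The lower late genes were Cnp, Ncbp1 and Unc119b. Cnp, a cyclic nucleotide phosphodiesterase known from myelin, was at 97.0 in F4, 318 in D5, 192 in F1 and 463 in J4, against 68.3 to 17883 (median 3109) without Crym, where 5 of 7 cells held it. Ncbp1, a subunit of the nuclear cap-binding complex, was at 2.95 to 746 in the 4 cells with Crym and at 2.40 to 14563 (median 2801) without Crym, again in 5 of 7 cells. Both were thus below the limit in all 4 cells with Crym, F4 included, though 9 and 10 of 13 P0 cells held them. Unc119b, a chaperone of lipidated proteins, was at 127 in F4, 115 in D5, 1169 in F1 and 840.4 in J4, against 732 to 34558 (median 2834) without Crym, and was held by 1 of 4 and 6 of 7 cells.

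Cells with Crym held some late genes all the same. Of the 123 late genes present in an E16.5 cell, 22 were present in at least 3 of the 4 cells with Crym (17.9%), against 11.9% of all genes tested. By comparison, 14 were present in at least 5 of the 7 cells without Crym (11.4%), against 9.22% of all genes tested. The rule chose late genes that many P0 cells held (74.3% of pairs, against 28.5% over all genes tested). The shares thus do not compare genes that are detected equally often. Kbtbd11, a protein with kelch repeats, was the late gene found in all 4 cells with Crym. Its signals were 7522 in F4, 3028 in D5, 5497 in F1 and 2116 in J4, against 19.5 to 3813 (median 787) without Crym, where J2, J1 and E8 held it, all of them cells on the arrays with different controls. The genes named in this paragraph and the next were chosen after their values were seen.

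Among the other late genes in 3 of the 4 cells with Crym were Spon1, Nrarp, Zfp36l2 and Gstp1. Spon1, the matrix protein F-spondin, was at 10146 in F4, 249 in D5, 1407 in F1 and 2256 in J4, against 32.7 to 4812 (median 436) without Crym, and was held by 2 of those 7. Nrarp, a feedback regulator of Notch signaling, was at 8047 in F4, 3074 in D5, 21669.7 in F1 and 555 in J4, against 76.5 to 3029.9 (median 297) without Crym, and was held by 3 of 7. In the 3 positive cells with Crym its signals were above those of all cells without Crym. Gstp1, a glutathione transferase, was at 14377 in F4, 32955 in D5, 989.8 in F1 and 5155 in J4, against 72.0 to 15719 (median 435) without Crym, and was also held by 3 of 7. Zfp36l2, which binds AU-rich elements of mRNAs, reached 13886 in F4 and 49976 in F1, 381 in D5 and 1225 in J4, while the cells without Crym lay between 142 and 1526 (median 1247), and 4 of 7 held it.

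Late genes found with Crym and in none of the 7 other cells numbered 8 (6.50% of those present at E16.5, against 25.9% of all genes tested), namely Ap3b2, Camk2d, Col9a3, Eapp, Pdpn, Plekha7, Sat1 and Txnip. Of these, Camk2d, a calcium and calmodulin-dependent kinase, and Txnip, a regulator of thioredoxin, were present in F1 and J4, and each of the others in a single cell. Txnip stood at 688 in F4, 396 in D5, 1381 in F1 and 4449 in J4, against 42.7 to 942 (median 550.5) without Crym. Late genes found without Crym and in none of the 4 cells with Crym numbered 13 (10.6%, against 19.8% of all genes tested). Genes detected in few cells weigh heavily in the shares over all genes. Of the 10891 tested, 2497 were held by 1 cell with Crym and by 0 without, a pattern of 6 late genes. Among the 13 was Nfib, a transcription factor of the nuclear factor I family that acts in late RPCs. Nfib stood at 52.1 in F4, 100.1 in D5, 912 in F1 and 589.6 in J4, against 62.0 to 97545 (median 376) without Crym. It was held there by J2 (1171), J1 (1060) and E5 (97545). J2 and J1 lay just above the limit and F1 just below it, all on arrays with different controls, and E5 had few genes present. The P0 cells held Nfib in 10 of 13 cases and the E12.5 cells in 0 of 11.

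The cells with Crym did not share the same late genes. F4 and D5, with the highest Crym signals, had 13 late genes in common, which were 20.3% of those of F4 and 52.0% of those of D5. In number, F4 shared more with cells without Crym on the arrays with different controls (37 with E8, 36 with J2 and 35 with J1) than with J4 (32) and F1 (24). As a share of the late genes of the other cell, these overlaps were 56.9% for E8, 56.25% for J2 and 58.3% for J1. They were 57.1% for J4 and 48.0% for F1, so that by share F4 was as close to J4 as to those 3 cells. D5 shared 17 with J2, 17 with J1 and 15 with E8, against 13 with J4 and 7 with F1. By the same share these were 26.6%, 28.3% and 23.1%, against 23.2% and 14.0%. Among the 12 late genes with the largest difference between P0 and E12.5 (75 points or more), F4 held 7, D5 1, F1 3 and J4 2, while the cells without Crym held 1 to 6. The number of genes present per cell, which lay between 1386 and 5253 with Crym and between 1438 and 4126 without Crym, differed along with these counts, and its part in them was not tested.

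**Figure D4:**
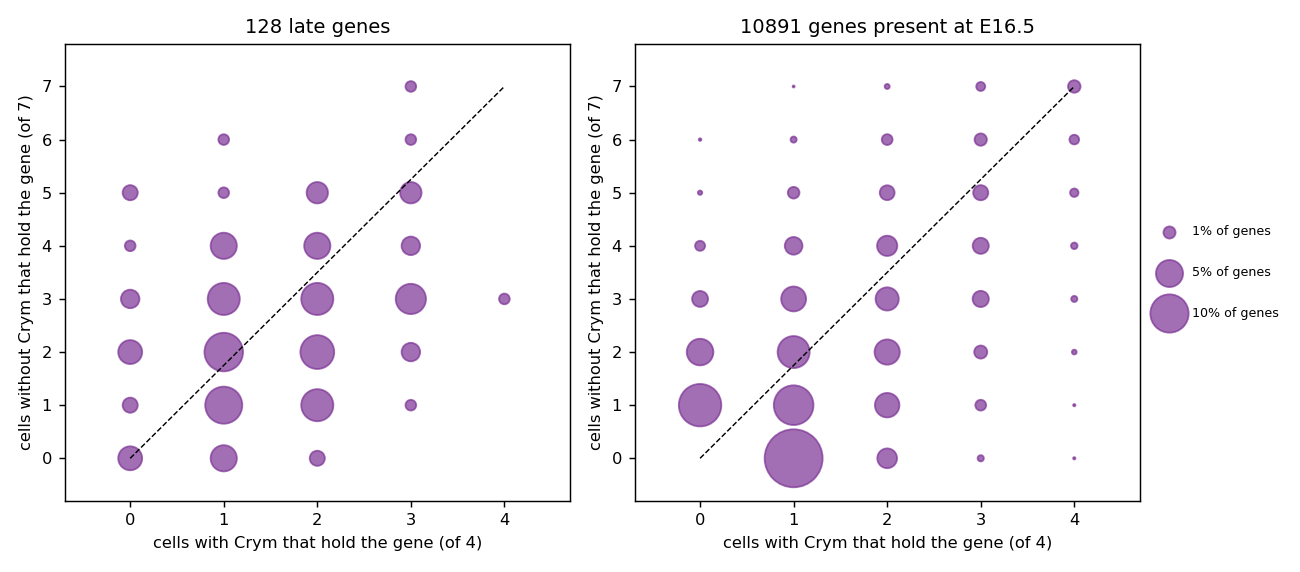
Number of the 4 cells with Crym (horizontal axis) and of the 7 cells without Crym (vertical axis) that held each gene, for the 128 late genes (left) and the 10891 genes present at E16.5 (right). The area of a circle is the percent of genes at that pair of counts, and the dashed line marks equal shares of cells. Late genes lie on both sides of the line, and 1 of them, Kbtbd11, is at 4 cells with Crym.

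Counted over pairs of a gene and a cell, early genes were present in 52.8% with Crym and 49.2% without Crym, a difference of 3.57 points (−8.15 to 15.1), against 17.9% at P0 and 79.1% at E12.5. On the arrays with different controls the difference was 6.79 points, and on the others −1.85 points. Early genes numbered 15 in F4, 7 in D5, 13 in F1 and 22 in J4, and 7 to 19 (median 14) in the cells without Crym. Sfrp2, a secreted Wnt inhibitor and a marker of early RPCs, was present in all 4 cells with Crym, at 1172 in F4, 19035 in D5, 1652 in F1 and 3627 in J4, and in 5 of 7 cells without Crym (14.9 to 15029, median 3775). At P0 it was present in 2 of 13 cells. D5 therefore carried a high signal of Crym together with the highest Sfrp2 signal of the 11 cells, though it was also the cell with the fewest genes present.

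Igf2bp1, an RNA-binding protein of early progenitors, was present in 3 of 4 cells with Crym (8579 in F4, 348 in D5, 2606 in F1 and 6397 in J4) and in 7 of 7 without Crym (1601 to 99473, median 2291). Foxp1 and Fgf3, early genes of the study's text, were present in 1 cell with Crym each, and in 3 and 2 cells without Crym. Foxp1 met the rule for early genes. Fgf3, in 4 of 11 E12.5 cells and 1 of 13 P0 cells, did not. Etv6, an ETS factor of the same list, was at 43.1 in F4, 8994 in D5, 212 in F1 and 1062 in J4, against 7.22 to 626 without Crym. It was present in 4 of 13 P0 cells and in 0 of 11 E12.5 cells and did not meet the rule for early genes. In stained sections, the study reports that its early genes followed the time course of Sfrp2, with part of those data not shown.

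Outside the late genes, 4 genes were present in all cells with Crym and in no cell without Crym (0.0367% of those tested). They were Fra10ac1, Zyg11b, a substrate receptor of a cullin ubiquitin ligase, Ddx10, an RNA helicase of ribosome assembly, and Riok1, a kinase of small ribosomal subunit maturation. Fra10ac1 had signals of 2009 in F4, 12309 in D5, 1191 in F1 and 1049 in J4, against 52.7 to 397 (median 183) without Crym. Zyg11b had 1552 in F4, 37940.4 in D5, 2105 in F1 and 2117 in J4, against 30.9 to 936 (median 522). Ddx10 had 1471 in F4, 16556 in D5, 1776 in F1 and 1722 in J4, against 8.67 to 869 (median 105) without Crym. The groups did not overlap, but the margin was small where the arrays had different controls, with Ddx10 at 869 in J2 and 838 in J1.

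Riok1 had signals of 8911 in F4, 3864 in D5, 1225 in F1 and 1179 in J4, against 67.8 to 966 (median 362) without Crym, where J2 stood at 966 and J1 at 910.3. These genes were not genes of P0 cells in particular. Fra10ac1 was present in 4 of 13 P0 cells and 1 of 11 E12.5 cells, Zyg11b in 5 and 1, Ddx10 in 2 and 1, and Riok1 in 5 and 3, although Crym was present in all 13 P0 cells. Signals did not overlap between the groups for 10 genes that were higher with Crym (0.0918%) and 5 that were lower (0.0459%), whether or not they met the 60 point rule.

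Next among the higher genes came Farsa, Zmat5, Recql and Fam3a, present in 4 of 4 cells with Crym and 1 of 7 without Crym. Farsa, a subunit of the phenylalanyl tRNA synthetase, stood at 7309 in F4, 31403 in D5, 1212 in F1 and 3806 in J4, against 28.8 to 4714 (median 331) without Crym. Recql, a DNA helicase, stood at 5960.1, 5552, 3409 and 1220.0 in F4, D5, F1 and J4, against 75.8 to 1359 (median 581) without Crym. Inpp5b, Gm6958, Pcyox1, Bpnt1, Igdcc4, Plod2 and Frmd8 followed, in 3 of 4 and 0 of 7 cells. Gm6958, a predicted gene, was present in 8 of 13 P0 and 8 of 11 E12.5 cells, and near-identical copies of such a gene could share its probes. Igdcc4 was present in 0 of 13 P0 cells and 3 of 11 E12.5 cells.

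The genes lower with Crym were led by Tdp2, a DNA repair phosphodiesterase, Polr1c, a subunit of RNA polymerases, Cdc42ep4, an effector of Cdc42, Mrpl50, a protein of the mitochondrial ribosome, and Sec14l1, each in 0 of 4 cells with Crym and 6 of 7 without Crym. Cdc42ep4 stood at 103 in F4, 29.5 in D5, 148 in F1 and 536 in J4, against 547 to 13217 (median 2545) without Crym, and its groups did not overlap. Polr1c stood at 257 in F4, 31.8 in D5, 187 in F1 and 919 in J4, against 453 to 38516 (median 4993) without Crym. Skil, a corepressor of TGF-beta signaling, Rbm17, a splicing factor, and Slc39a6, a zinc transporter, were in 1 of 4 cells with Crym and 7 of 7 without Crym. Skil was at 277 in F4, 94.7 in D5, 233 in F1 and 8821 in J4, against 4257 to 113481 (median 8455) without Crym, and it was present in 11 of 13 P0 and 11 of 11 E12.5 cells. Dpy30, a subunit of histone methyltransferase complexes, and Elmod2 were in 0 of 4 and 5 of 7 cells, and Dpy30 was present in all 13 P0 cells.

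**Figure D5:**
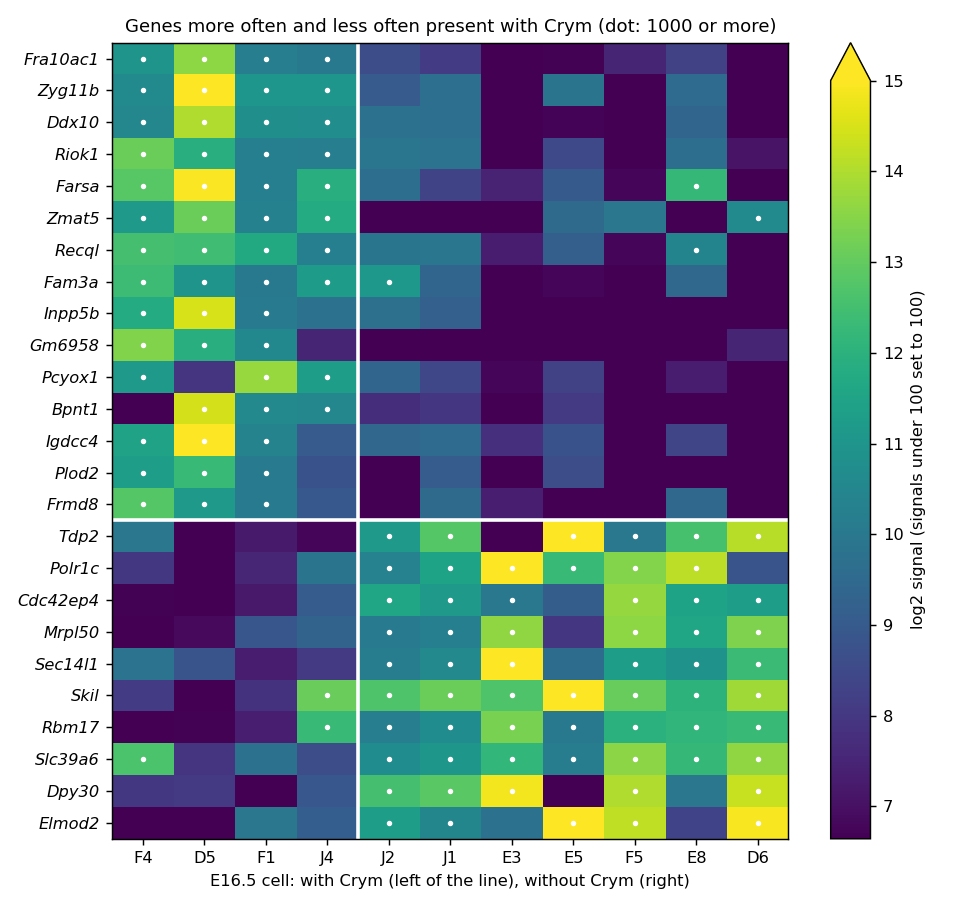
Signals (color, log2 scale, signals under 100 set to 100) of the 15 genes more often present with Crym (upper rows) and the 10 genes less often present with Crym (lower rows) in the 11 E16.5 cells (columns), with the 4 cells with Crym left of the vertical line and the 7 cells without Crym right of it. Dots mark signals of 1000 or more. The upper 4 genes have dots in the 4 cells with Crym and in no cell without Crym, and the rows show the values that chose them.

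The higher genes often lay close to the limit. F1 held 121 of the 141, of which 103 had signals between 1000 and 2000, and J4 held 125, of which 58 lay in that range. The same range held 23 of 120 in F4 and 8 of 82 in D5. Of the 10891 genes tested, those that met the rule within each set of arrays numbered 578 higher and 791 lower on those with different controls (2 against 3 cells), and 269 higher and 100 lower on the others (2 against 4 cells). With 2 cells with Crym in a set, the rule could be met only by genes in all or in no cells with Crym. Genes common to the sets were thus bound to be among the 141 and 50 as well, and are not a repeat of them. The sets had 15 higher genes in common, among them the 4 genes above, Farsa, Recql, Zmat5, Fam3a and Ncoa3, and 11 lower genes, among them Tdp2, Polr1c, Cdc42ep4, Mrpl50, Sec14l1, Dpy30, Elmod2 and Ect2. None of these genes was a late gene, and late genes were 123 of the 10891 genes.

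Crym holds thyroid hormone in the cytosol, and genes of thyroid hormone transport, conversion, receptors and cofactors were therefore examined (18 measured of 22). They were present in 31.9% of pairs with Crym and 19.8% without Crym, a difference of 12.1 points (−0.287 to 25.0). The median over the 15 members present at E16.5 was 21.4 points, against 10.7 over all genes. In single cells the members numbered 5 in F4, 1 in D5, 8 in F1 and 9 in J4, against 2 to 4 without Crym, where F1 and J4 were on the arrays with different controls. On those arrays the shares were 47.2% with Crym and 22.2% without Crym, and on the others 16.7% with Crym and 18.1% without Crym, so that the direction differed between the sets. Of the members, 1 was higher and 0 were lower by the 60 point rule, against 1.29% and 0.459% of all genes tested.

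The higher member was Ncoa3, a coactivator of nuclear receptors, at 6018 in F4, 14234 in D5, 1079 in F1 and 2719 in J4, against 63.9 to 71076 (median 521) without Crym, where J2 and E5 held it. The highest signal was that of E5, without Crym, a cell with few genes present and very high signals for single genes. Thra, the alpha receptor of thyroid hormone and itself a late gene, was present in 2 of 4 cells with Crym (9809 in F4, 60.7 in D5, 904 in F1 and 1580.2 in J4) and in 2 of 7 without Crym (68.5 to 9285, median 399). Thrap3, a cofactor of the thyroid receptor complex, was present in F4 (6723) and F1 (2239), and in 1 of 7 cells without Crym.

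Genes of G2 and M phase (28 measured) differed between the groups on the arrays with different controls. On those arrays they were present in 25.0% of pairs with Crym (F1 and J4) and 60.7% without Crym (J2, J1 and E8). On the other arrays the order was the opposite, with 39.3% with Crym (F4 and D5) and 35.7% without Crym (E3, E5, F5 and D6). Over all cells they were present in 32.1% of pairs with Crym and 46.4% without Crym, a difference of −14.3 points (−24.9 to −2.88), and 20 of 28 had a smaller share with Crym. The median difference was −17.9 points, against 10.7 over all genes. Per cell they numbered 14 in F4, 8 in D5, 11 in F1 and 3 in J4, against 7 to 22 without Crym, and the groups overlapped. The interval over pairs does not cover this spread between cells. Ect2, an exchange factor needed for cytokinesis, was the member lower by the rule, at 598 in F4, 2.49 in D5, 379 in F1 and 582 in J4, against 38.8 to 22053 (median 1143) without Crym. Ccna2, cyclin A2, was in 2 of 4 cells with Crym (7911 in F4, 38226 in D5, 709 in F1 and 477 in J4) and in 7 of 7 without Crym (1601 to 13638, median 8039). The highest Ccna2 signal was thus in a cell with Crym, and P0 cells, which all held Crym, held G2 and M phase genes in 66.5% of pairs.

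Genes of S phase were present in 56.0% of pairs with Crym and 58.3% without Crym (25 genes, −2.29 points, −14.3 to 9.63), with −20.7 points on the arrays with different controls, while on the others the shares were 54.0% with Crym and 43.0% without Crym. Mcm7, a subunit of the replicative helicase, was in 2 of 4 cells with Crym (16570.3 in F4, 712 in D5, 772 in F1 and 5083 in J4) and in 7 of 7 without Crym (1848 to 84977, median 13409). Broad progenitor genes were present in 56.7% of pairs with Crym and 68.6% without Crym (15 genes, −11.9 points, −26.8 to 3.15), with −21.1 points on the arrays with different controls and −6.67 points on the others. Dkk3 was at 15237 in F4, 84.1 in D5, 1078 in F1 and 12452 in J4, against 10073 to 104547 (median 25837) without Crym. D5 and F1, both transitional, lay below all cells without Crym, whose highest signal was that of E5, also transitional.

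Of the signaling pathways, Hedgehog genes (13) had 0 higher and 1 lower member. It was Mycn, a Hedgehog target in progenitors, at 4303 in F4, 69.6 in D5, 668 in F1 and 243 in J4, against 805 to 13773 (median 1622) without Crym, in 1 of 4 and 6 of 7 cells. Notch genes (20) and FGF genes (17) had 0 higher and 0 lower members. Over all genes tested 1.29% were higher and 0.459% lower, so that lists of this size were likely to hold few such genes or 0. Hes1, a Notch effector, was in 0 of 4 cells with Crym and 3 of 7 without Crym, while Hes5, another one, was in 3 of 4 and 3 of 7. Genes of Müller glia (20), the last cell type made by RPCs, were present in 43.8% of pairs with Crym and 37.9% without Crym (5.89 points, −7.34 to 19.2), with 0 higher and 0 lower. Within the sets of arrays the difference for Müller glia genes was 0.0 points with different controls and 8.75 points on the others. Among immediate early and heat shock genes (13), Fosb was higher, at 1024 in F4, 7218 in D5, 1286 in F1 and 801 in J4, against 10.5 to 2055 (median 147) without Crym.

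Markers of differentiated retinal cells were looked at as well. Genes of retinal ganglion cells (14) were present in 19.6% of pairs with Crym and 20.4% without Crym, of amacrine cells (11) in 25.0% and 18.2%, of photoreceptors (16) in 9.38% and 6.25% and of bipolar cells (7) in 28.6% and 10.2%. On the arrays with different controls the differences were 11.9 points for ganglion cell genes, 28.8 for amacrine, 5.21 for photoreceptor and 28.6 for bipolar genes, and on the others −10.7, −13.6, 1.56 and 7.14 points. None of their members was higher or lower by the rule, which over all genes tested held for 1.29% and 0.459%, so that short lists say little here. F1 held 6 of the 7 bipolar genes and 7 of the 11 amacrine genes, and the other cells with Crym 0 to 1 and 0 to 2 of them. The summed signal of the bipolar genes was 2826.7 to 16019.8 with Crym and 286 to 55205 without Crym. Otx2, a factor of photoreceptor and bipolar precursors, was present in F4 (2027) and D5 (8949) with Crym and in E3 (11557) without Crym. Prdm1, which acts in photoreceptor precursors, was at 31158 in D5 and 1516 in J4, 88.3 in F4 and 578 in F1, and at 14.7 to 729 without Crym. D5 thus held Crym, Sfrp2, Otx2 and Prdm1 together. Otx2 and Prdm1 were its only photoreceptor genes, 2 of 16. D5 also held 4 of 14 ganglion cell genes, 0 of 11 amacrine genes and 4 of 15 broad progenitor genes.

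Genes of cells outside the neural retina were rare, except in F1. Keratins and chemosensory receptors (125 genes) were present in 4.6% of pairs with Crym and 1.14% without Crym, and 22 of the 23 positive pairs with Crym were those of F1. Of the lists of lens, blood, endothelium, mesenchyme and pigment epithelium, F1 held 1 of 13, 2 of 6, 3 of 8, 3 of 7 and 2 of 10 genes, and the other cells with Crym 0 to 1 of each. Microglia genes (9) were present in no E16.5 cell. The part of these signals in the results for F1 was not tested.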

How the data were processed

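Expression was measured in single CD1 mouse retinal cells, 1 Affymetrix 430 2.0 array per cell. Per the labels and the study's methods, the authors lysed each cell, reverse transcribed its RNA, amplified the cDNA by PCR, and computed the deposited intensity values with MAS5, as linear signals scaled alike on every array (trimmed mean 500.0 on all arrays). Amplification before hybridization can lose transcripts, so that a signal under 1000, the background level of the study, does not show absence. Depth cannot be read from an array, and the number of arrays limits the precision. Of 45101 probe sets, 34958 had 1 gene symbol and gave 18194 genes, 932 had several and 9211 were unnamed here. Symbols were checked through the gene identifier with the RefSeq table of GRCm38.p6, which matched 35686 probe sets. From these values the highest probe set per gene and cell, presence at 1000 or more, percents of cells, exact (Clopper-Pearson) and Newcombe intervals were computed (Python 3.11.15, pandas 2.3.3, scipy 1.17.1). Differences in log2 signal, with signals under 100 set to 100, only ordered ties. The counting rule was run on simulated data, with differences planted in genes of low signal in all E16.5 cells. Nearly all such genes were bound to be found. The run therefore says nothing of genes near the limit or of the arrays with different controls. Every E16.5 cell is 1 sample of unknown animal, and its Crym signal set its group, so that no test between the groups was run. The members and gene lists were chosen with earlier results of these data known. Named genes were the 15 higher and 10 lower genes with the largest difference in percent of cells, late genes that were higher, the late (5) and early genes of the study's text, and 3 members of every other list, one of which held Col9a3, Ttyh1 and Pdpn. Alternatives were other levels, probe set rules, cells and arrays. Some genes of the lists are not reported here.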

Additional observations from a re-analysis of the deposited data

Results flagged for a closer look

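In groups of 4 and 7 cells, 10 of 112 sets of values had 1 cell whose gap to the next was a large part of the range. Gene signals were compared as log2 values with signals under 100 set to 100. Chance is taken to mark about 1 in 20 such sets, a rate that was not checked on these data. Many of the genes had been chosen on these same cells, so that the rate need not hold for them. Ptch1 (5500.1 in F4, 34.4 to 183 in D5, F1 and J4) and Pdpn (3570.2 in F4, 23.9 to 63.3 in D5, F1 and J4) both set F4 apart. F1 held 22 keratin and chemosensory receptor genes, against 0 to 1 in F4, D5 and J4, and it had the highest Fgf3 signal with Crym (1679.9, others 72.1 to 161). In D5, Zyg11b (37940.4, others 1552 to 2117) and Ddx10 (16556, others 1471 to 1776) were far above the rest. In J4, Rbm17 was at 4914 (others 53.1 to 164) and Rlbp1 at 285 (others 18.6 to 49.5), below the level of presence. Without Crym, Skil was at 113481 in E5 (others 4257 to 14410.1), and Gm6958 at 183 in D6 (others 17.2 to 97.6), below the level of presence. For Pdpn, Rlbp1 and Gm6958 the other cells of the group were all under 100 and so were set equal, which made the gap the whole range.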

How the results depend on the processing

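The number of genes higher with Crym (141) changed with the limit, the arrays and the cells used. It was 37 at a presence level of 2000, 20 at 5000, 93 with the 2500 highest genes per cell, 58 with the median of the probe sets, and 37 when a difference of 75 points was needed. It was 269 without the arrays of E8, F1, J1, J2 and J4, 578 on those arrays alone, and 574 without the transitional cells. The number of genes lower with Crym (50) was 17 at 5000, 194 when a Crym signal of 5000 split the cells (F4 and D5 against 9), 100 without the 5 arrays, 791 on them alone, 145 without the transitional cells and 8 at 75 points. With fewer cells in a group, fewer combinations of cells lie under 60 points, so that counts over subsets of cells are not on 1 scale. With each cell left out in turn, the higher genes numbered 63 (without E3) to 429 (without D5), with 72, 243, 73, 70 and 66 without E8, F4, F5, D6 and E5. The lower genes numbered 30 (without D5) to 90 (without F4), with 88 without J4 and 86 without E5.

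The difference for late genes (3.04 points) was 10.4 points without the 5 arrays and −7.81 on them alone. It also changed sign at a level of 2000 (−0.524), by rank (−1.38) and at a Crym split of 5000 (−1.69). Leaving out each cell gave −0.93 (without F4) to 9.23 (without D5), with −0.59 without E5. The interval over pairs (−2.15 to 8.30) held neither the values of the 2 sets of arrays nor that without D5. It does not cover the spread between cells. The difference for early genes (3.57 points) was −11.9 at a Crym split of 5000 and 15.4 without the transitional cells, and leaving out each cell gave −6.0 (without J4) to 12.5 (without D5), with −0.31 without E5. Late genes that were higher, 1 of 128, numbered 2 at a level of 500, 0 at 2000 and at 5000, 4 by rank, 2 by the median probe set, 9 without the 5 arrays, 8 on them alone, 14 without the transitional cells, 0 at 75 points, 0 with late genes defined at 60 points, and 0 to 5 with each cell left out, the 5 without D5. The causes were not tested. Of 660 values of the 30 named genes that were higher or lower, over 22 alternatives, 505 still met the rule. The other 155 lay below 60 points, with differences of 0 counted among them, and 0 had the opposite direction. The 30 genes had met the rule on these same cells. Many alternatives left out only 1 cell, and a Crym split of 500 left the groups unchanged. Of the 30, 2 still met the rule at a level of 5000, 10 at 2000, 15 at 500, 14 by rank and 14 by the median probe set.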
